A study of Mus musculus with 6 samples.

Results

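The 36 genes described here encode the protein-folding machinery of the endoplasmic reticulum (ER) and the unfolded protein response. They were chosen by name for these roles, with earlier results of these data known. Each was matched by symbol to the 47561 gene rows of each deposited table. Each of the 36 had exactly 1 row. A filter on low counts left 15778 genes for testing, among them 35 of the 36. Vldlr, a lipoprotein receptor gene that stress signalling can induce, was not tested: it was listed at 0 in 5 libraries and at 16 estimated counts (about 4 read pairs) in CUMS replicate 1. The members fall into 11 chaperones and co-chaperones, 5 disulfide isomerases and oxidases, 7 genes of ER-associated degradation (ERAD) and translocation, 4 sensors and 9 genes of the amino acid stress arm.

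RNA came from neutrophils that the design text describes as sorted by flow cytometry from mouse bone marrow. The mice were male and wild type (WT). The Control group has 3 libraries. The other 3 come from mice given chronic unpredictable mild stress (CUMS), a changing series of mild stressors applied over 4 weeks that is used as a model of depression-like states. The labels used here state no strain, age or sorting markers and do not say whether a library is 1 animal, so p-values measure only the spread between these libraries, which may be technical. Levels are given as CPM, counts brought to a common library total after scaling between libraries.

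Secreted and granule proteins enter the ER as they are made, and chaperones and disulfide isomerases fold them there. When unfolded protein accumulates, 3 membrane sensors respond. IRE1 (gene Ern1) splices Xbp1 mRNA into the form that encodes an active transcription factor, ATF6 is cut to release another, and PERK (Eif2ak3) phosphorylates eIF2alpha, which slows translation and favours synthesis of ATF4. ATF4 also answers to amino acid shortage and acts on genes of amino acid supply. In the neutrophil lineage, granule proteins are made mainly by immature cells of the marrow, and Xbp1 is known for its role in secretory cells such as plasma cells and eosinophil precursors.

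The libraries held 78845457 to 109757558 estimated counts, or about 19711364 to 27439390 read pairs. Neutrophil markers were abundant: S100a9 averaged 38938 CPM in Control against 32898 in CUMS, and Ly6g 454 against 434 CPM. T cell, NK cell and megakaryocyte markers were near 0, with 12 T and NK genes summing to 4.56 to 6.88 CPM and 8 megakaryocyte genes to 5.41 to 6.50 CPM. Erythroid markers were higher in CUMS, with 7 of 12 called and the list summing to 1313 to 1884 CPM in Control against 2530 to 3014 CPM. Cell division genes were lower, with 17 of 20 called and sums of 582 to 627 CPM against 403 to 430 CPM. Over all genes tested, edgeR called 2.14% lower and 2.36% higher. In bulk RNA, fewer cells of a type and less RNA per cell cannot be told apart.

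Promoter sequence gives a first view of what the members share. RefSeq promoter windows (GRCm38.p6, from 250 bases before to 50 bases after the annotated start) were found for 32 of the 36 members. Hyou1, Atf6, Manf and Derl1 had no entry. Both strands of each window were searched for the ER stress response element (ERSE), read as CCAAT, 9 free bases and CCACG, and for ERSE-II, read as ATTGG, 1 free base and CCACG. ERSE was found in 9 of 32 members (28.1%) and in 37 of 27025 genes with a window (0.137%). ERSE-II was found in Dnajb11 and Herpud1, 2 of 32 members (6.25%), and in 0.044% of all genes. The XBP1-type element TGACGTGG was in 0 of 32 members and 0.714% of all genes. The amino acid response motif TGATGNAA was in 6 of 32 members (18.8%) and in 4.51% of all genes. No sites of the members overlapped each other. A match is a stretch of letters, not a measured binding site.

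The stretches below show the motif sites of the chaperone and isomerase members whose values are given in full later, and of a member of each of 2 other arms, with 10 flanking bases on each side. All run 5′ to 3′ in the direction of the gene, and capitals mark the fixed bases of a motif.
Hspa5 (ERSE): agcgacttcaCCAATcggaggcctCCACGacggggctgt
Hsp90b1 (2 ERSE sites, the latter on the other strand): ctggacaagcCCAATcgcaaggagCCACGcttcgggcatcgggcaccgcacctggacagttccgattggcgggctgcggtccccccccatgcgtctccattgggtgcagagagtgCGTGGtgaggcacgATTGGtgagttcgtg
Canx (ERSE): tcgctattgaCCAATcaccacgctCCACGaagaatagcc
Calr (ERSE on the other strand): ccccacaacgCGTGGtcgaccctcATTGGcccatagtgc
Pdia6 (ERSE): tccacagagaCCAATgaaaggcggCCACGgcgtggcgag
Herpud1 (amino acid response motif on the other strand, then ERSE-II): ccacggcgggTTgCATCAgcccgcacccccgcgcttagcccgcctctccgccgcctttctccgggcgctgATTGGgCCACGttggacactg
Slc7a11 (amino acid response motif on each strand): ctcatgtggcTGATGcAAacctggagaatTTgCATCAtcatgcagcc

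On GRCm38 these stretches lie at chr2:34772015-34772053 (Hspa5, plus strand), chr10:86705523-86705666 (Hsp90b1, minus strand), chr11:50325790-50325828 (Canx, minus strand), chr8:84847065-84847103 (Calr, minus strand), chr12:17266481-17266519 (Pdia6, plus strand), chr8:94386307-94386397 (Herpud1, plus strand) and chr3:50443643-50443689 (Slc7a11, minus strand). The other members with ERSE were Dnajc3, Creld2, Ero1b and Syvn1. The amino acid response motif was also found in Chac1, Trib3, Asns and Vldlr, so 5 of the 6 genes that hold it belong to the amino acid stress arm.

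Several chaperone and isomerase genes were lower after stress, while the PERK gene was higher. Of the 35 members tested, 6 fell in CUMS (Hsp90b1, Hyou1, Canx, Pdia3, P4hb and Xbp1), 1 rose (Eif2ak3) and 28 did not pass. These calls are from edgeR's quasi-likelihood test at an adjusted p threshold of 0.05 over all 15778 genes, where 2.14% of genes were lower and 2.36% higher (4.5% in either direction). The members' share lower was 17.1%. Because the members were chosen with earlier results of these data known, the contrasts of shares in this paragraph are descriptions, not tests. DESeq2 called 8 members lower and 1 higher, against 4.63% lower of the 10802 genes to which DESeq2 gave an adjusted p. Among the 30 members with a mean of at least 10 CPM, 6 fell and 1 rose, beside 3.49% lower and 4.86% higher of the 6446 genes at that level. At an unadjusted p under 0.05, 14 members were lower and 2 higher, where 16.9% of all genes passed in either direction. Estimates were negative for 25 of the 35 (71.4%) and for 51.6% of all genes. The median log2 fold change of the members was -0.11, against -0.01 over all genes tested. All changes were small, the 7 called members differing by 13.7% to 22.4%. For 16 of the 35 all CUMS libraries lay below all Control libraries, as they did for 11.5% of all genes, and for 3 (Dnajb9, Eif2ak3 and Ddit3) they lay above, as for another 11.5%. On GRCm38, apart from Hsp90b1 and Eif2ak3 below, the called genes lie at bases 44379490 to 44392369 of chromosome 9 (Hyou1), 50293961 to 50325673 (Canx), 120560298 to 120573253 (P4hb) and 5520659 to 5525893 (Xbp1) of chromosome 11, and 121413775 to 121438687 of chromosome 2 (Pdia3). An exact two-sided permutation test on 1 gene cannot go below 0.1 with 3 against 3 libraries, and each of the 7 called genes had that value.

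**Figure D1:**
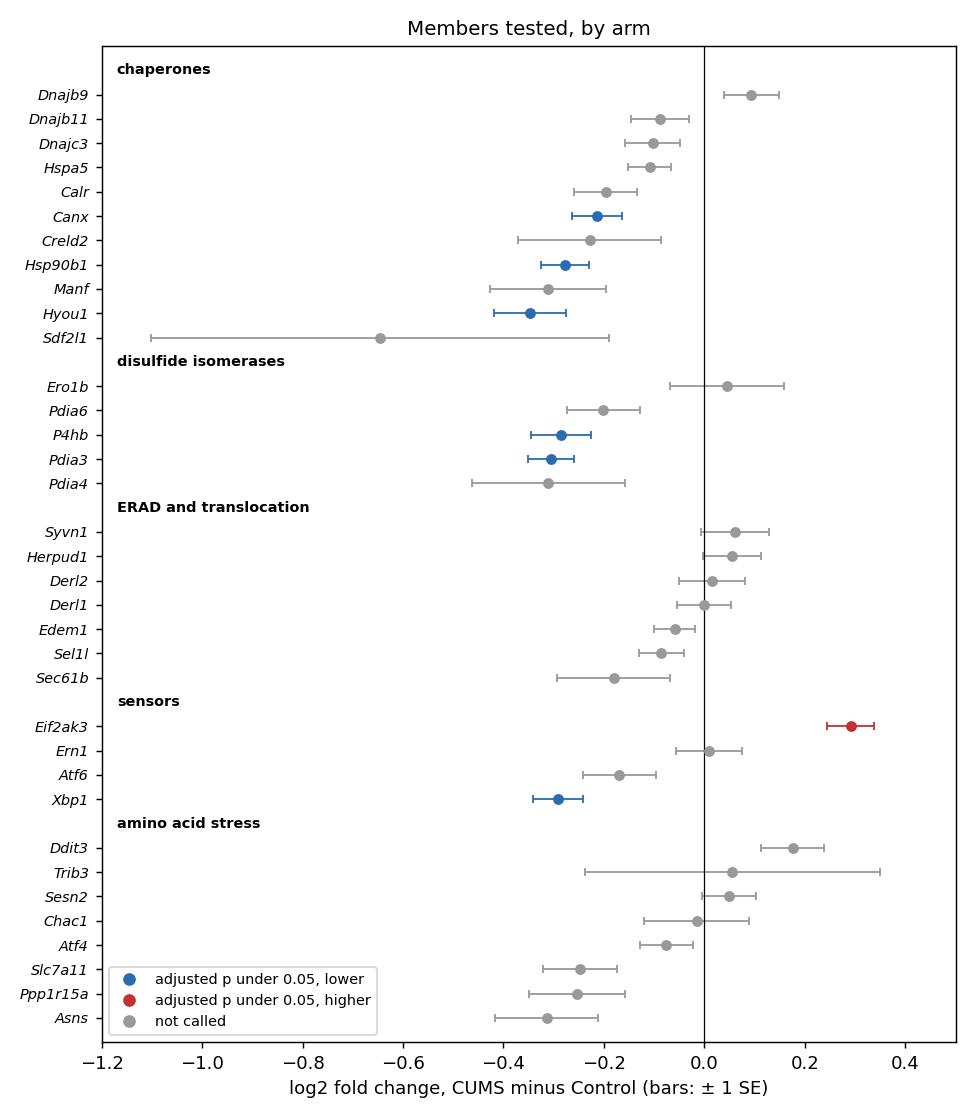
Log2 fold change (CUMS minus Control, horizontal axis) of the 35 members tested, grouped by arm, with bars of 1 SE. Blue points passed an adjusted p of 0.05 as lower, the red point as higher, and grey points were not called. The 6 blue points lie among chaperones, isomerases and the sensor arm, and ERAD genes lie near 0.

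The members differed widely in abundance. Per kilobase of annotated exon, Hspa5, which encodes the main ER chaperone BiP, was highest in Control at 57.4 ± 0.861 CPM per kb (SD, n = 3). Atf4 (50.7 ± 3.35), P4hb (50.05 ± 3.85) and Calr (48.2 ± 1.53) followed, and these 3 did not differ beyond their spread. Edem1 measured 43.9 ± 1.54 and Pdia3 39.2 ± 1.21 CPM per kb. At the low end stood Pdia4 (2.41 ± 0.123), Trib3 (1.025 ± 0.326) and Sdf2l1 (0.825 ± 0.341). Exon length was the union of all annotated transcripts, so genes with long rare transcripts read low on this scale. Sdf2l1 rests on 107 read pairs over all 6 libraries and Trib3 on 311, against 33193 for Hspa5, so changes in these 2 low genes are poorly measured.

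**Figure D2:**
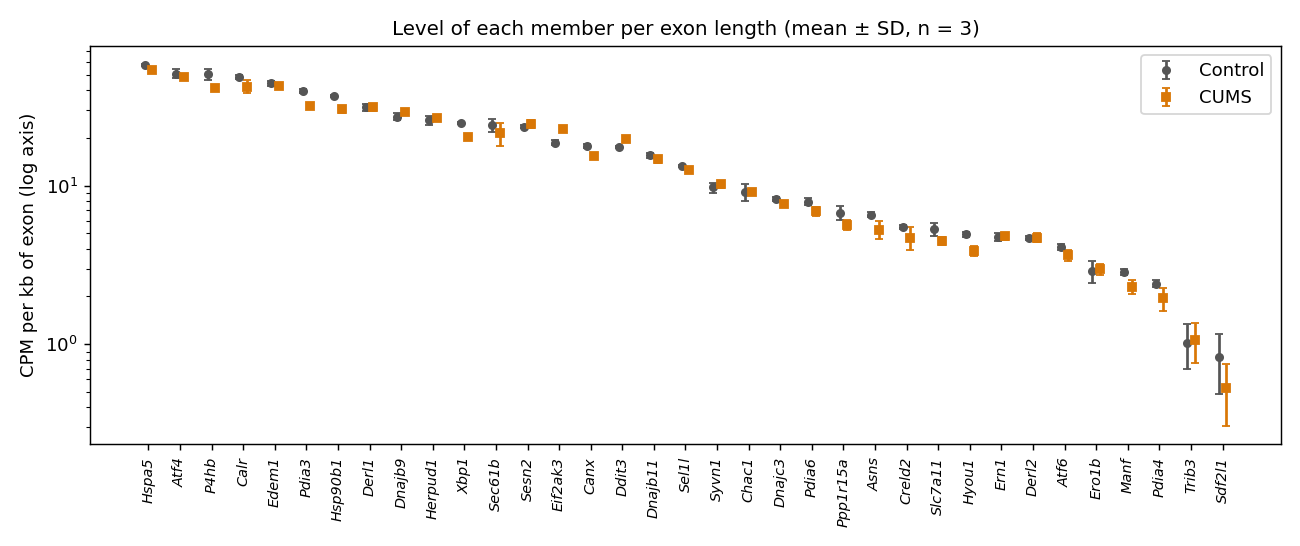
Mean level per kb of exon (log axis) of the 35 members above 0 in Control, ordered by their Control level, with SD over 3 libraries. Hspa5 is highest at 57.4 CPM per kb in Control and Sdf2l1 lowest at 0.825.

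Among chaperones, 3 of 11 fell and 0 rose (6 and 0 at an unadjusted p under 0.05, which 16.9% of all genes passed, and 4 and 0 by DESeq2), with a median log2 fold change of -0.21. The edgeR share lower was 27.3%, beside 2.14% of all genes. Hsp90b1 encodes GRP94, the HSP90 of the ER, which folds Toll-like receptors and integrins. It measured 149, 150.4 and 144 CPM in Control replicates 1 to 3 and 127, 115 and 124 CPM in CUMS. Every CUMS library was below every Control library, and the means were 148 ± 3.05 and 122 ± 6.18 CPM (SD, n = 3 each). The log2 fold change was -0.28 ± 0.048 (SE), with an edgeR adjusted p of 0.0074. Some exons of Hsp90b1 (chromosome 10, 86690209 to 86705509) share 632 bp with annotated noncoding neighbours.

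Hyou1, whose product is a large HSP70-like chaperone that exchanges nucleotide on BiP, measured 34.3, 36.03 and 36.8 CPM in Control and 26.0, 27.9 and 30.3 CPM in CUMS. The groups did not overlap, and the log2 fold change was -0.35 ± 0.071 (edgeR adjusted p = 0.018). It was the largest fall among the called members, though its call ended when either Control 2, Control 3, CUMS 1 or CUMS 2 was left out (edgeR adjusted p from 0.051 to 0.093). Canx, the membrane lectin calnexin that holds newly made glycoproteins during folding, measured 81.2, 82.8 and 86.5 CPM in Control and 72.2, 69.4 and 74.4 CPM in CUMS (log2 fold change -0.21 ± 0.050, edgeR adjusted p = 0.034). These groups did not overlap either, yet the Canx call ended when any single library was left out and with no filter (edgeR adjusted p up to 0.156).

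Calr, the soluble counterpart of calnexin, measured 142, 134 and 140.3 CPM in Control and 134, 113 and 116 CPM in CUMS. CUMS replicate 1 reached the lowest Control library, and the gene did not pass (log2 fold change -0.20 ± 0.062, edgeR adjusted p = 0.12). With CUMS replicate 1 left out, Calr was called at a log2 fold change of -0.27 (edgeR adjusted p = 0.013), as it also was by DESeq2 and voom with all libraries. Hspa5 itself measured 239, 242 and 247 CPM in Control and 234, 216 and 225 CPM in CUMS. All CUMS values were below the Control values, but by 7.28%, and the difference did not pass (log2 fold change -0.11 ± 0.042, edgeR adjusted p = 0.20).

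The remaining chaperone members did not pass. Manf, a secreted ER-stress factor, had a log2 fold change of -0.31 ± 0.12, and Creld2, an ER protein with similar induction, -0.23 ± 0.14. Both had non-overlapping groups (10.1, 10.5 and 9.67 CPM against 8.90, 8.24 and 7.26 CPM for Manf). The J-domain co-chaperones of BiP varied: Dnajc3 was -0.10 ± 0.055, Dnajb11 -0.09 ± 0.057 and Dnajb9 0.09 ± 0.055. Dnajb9, which encodes ERdj4, was thus the chaperone whose CUMS libraries (72.0 to 76.6 CPM) all lay above its Control libraries (65.0 to 71.5 CPM). Sdf2l1, a BiP-associated protein gene, had the most negative estimate (-0.65 ± 0.46) and the widest error.

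**Figure D3:**
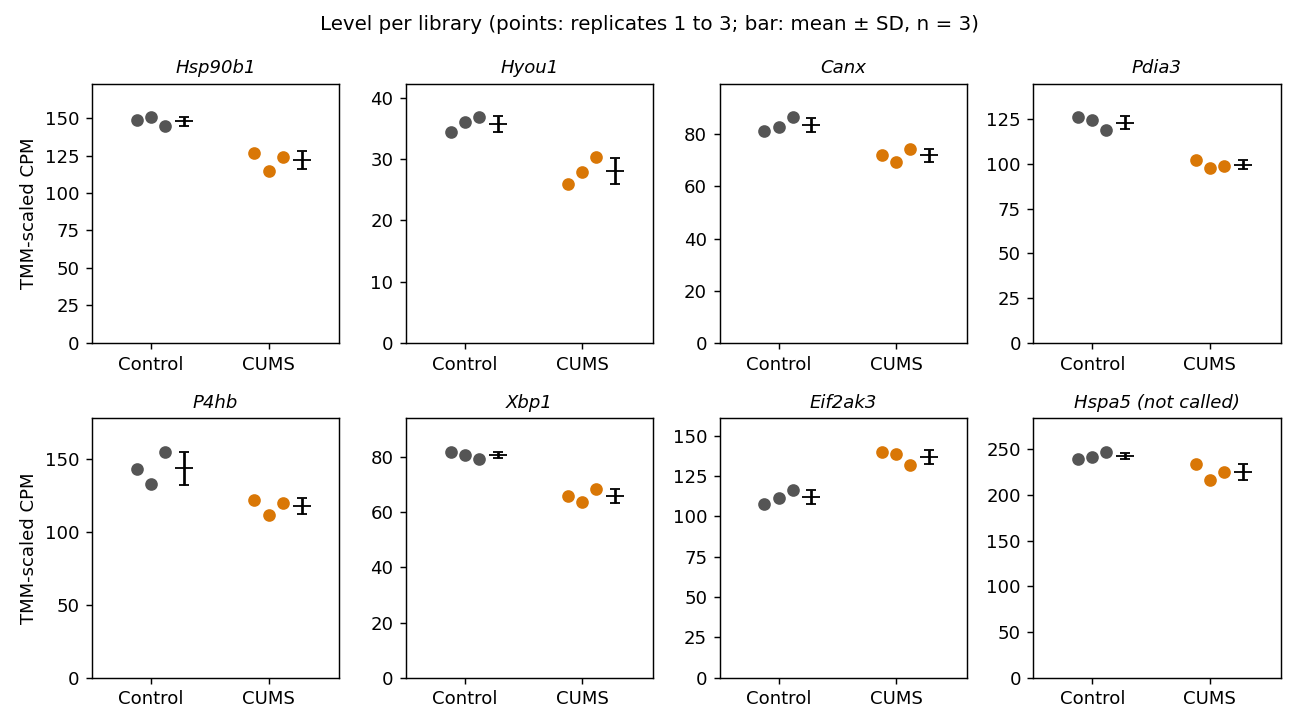
Level of the 7 called members and of Hspa5 in each library (vertical axis, CPM from 0), with the mean and SD of 3 libraries beside the points. For the called genes no CUMS point reaches the Control points; Eif2ak3 is higher and the other 6 are lower in CUMS.

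Of the 5 disulfide isomerase and oxidase genes, 2 fell and 0 rose (3 and 0 at an unadjusted p under 0.05, 2 and 0 by DESeq2), with a median of -0.28. Over all genes 2.14% fell by edgeR, and 16.9% passed the unadjusted threshold in either direction. Pdia3 encodes ERp57, the isomerase that works with calnexin and calreticulin and forms part of the MHC class I loading complex. It measured 126, 124 and 119 CPM in Control and 102, 98.0 and 98.6 CPM in CUMS. The groups were well apart (123 ± 3.79 and 99.7 ± 2.40 CPM), and its log2 fold change of -0.31 ± 0.045 had the lowest adjusted p of any member (0.0030). P4hb, the classical protein disulfide isomerase gene, measured 143, 132 and 154 CPM in Control and 122, 111 and 120 CPM in CUMS (log2 fold change -0.28 ± 0.060, edgeR adjusted p = 0.020). Its Control libraries were the more scattered, and its call ended when either Control 1, Control 3, CUMS 2 or CUMS 3 was left out and with no filter on low counts (edgeR adjusted p up to 0.11).

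Pdia6, an isomerase that binds BiP, measured 27.9, 30.4 and 30.5 CPM in Control and 27.7, 24.5 and 25.1 CPM in CUMS, with CUMS replicate 1 just below the lowest Control library (log2 fold change -0.20 ± 0.073, edgeR adjusted p = 0.17). Pdia4, a further isomerase, had -0.31 ± 0.15 at 5.78 and 4.66 CPM. Ero1b, an oxidase that recharges the isomerases, had 0.04 ± 0.11. Neither passed. Its paralogue Ero1a, which is not a member, was more abundant (176 ± 9.12 CPM against 154 ± 6.29 CPM in CUMS) and had a log2 fold change of -0.19 ± 0.051 with an edgeR adjusted p of 0.063.

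None of the 7 ERAD and translocation genes was called by edgeR, at an adjusted threshold or at an unadjusted p under 0.05, and 0 were called by DESeq2 or voom. Of all genes, edgeR called 4.5% in either direction, and 16.9% passed the unadjusted threshold. A count of 0 among 7 genes is near the first share. The median log2 fold change of the arm was -0.0012, and estimates ran from -0.18 to 0.06. Sel1l, the adaptor of the HRD1 ubiquitin ligase, measured 113, 115 and 113 CPM in Control and 105, 105 and 111 CPM in CUMS, a difference of 5.77% (log2 fold change -0.09 ± 0.044, edgeR adjusted p = 0.37). Sec61b, a subunit of the channel through which proteins enter the ER, measured 32.6, 32.0 and 27.2 CPM in Control and 31.9, 26.3 and 22.9 CPM in CUMS (-0.18 ± 0.11). Its groups overlapped. Syvn1, which encodes HRD1 itself, Herpud1, a membrane partner of that complex, and the derlin genes Derl1 and Derl2 had estimates of 0.06, 0.06, -0.0012 and 0.02. Edem1, a mannosidase-like lectin that directs misfolded glycoproteins to degradation, was the most abundant of the arm at 283 ± 9.94 and 272 ± 5.54 CPM (-0.06 ± 0.041).

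The 4 sensor genes did not share a direction: 1 rose, 1 fell and 2 did not pass. By edgeR, 2.14% of all genes were lower and 2.36% higher. Eif2ak3, the PERK gene, measured 108, 112 and 116 CPM in Control and 139.8, 139 and 132 CPM in CUMS. All CUMS libraries exceeded all Control libraries, with means of 112 ± 4.22 and 137 ± 4.19 CPM, a rise of 22.4% (log2 fold change 0.29 ± 0.047, edgeR adjusted p = 0.0049). It kept its call under all 13 alternative settings (adjusted p 4.1e-07 to 0.029). The gene spans bases 70844515 to 70905245 of chromosome 6 (GRCm38, plus strand), and 485 bp of its 6026 bp of exon coincide with an unclassified transcript annotated on the opposite strand. Without strand, reads of Eif2ak3 or Hsp90b1 and of such overlapping transcripts cannot be told apart.

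Xbp1, the target of IRE1, moved the other way. It measured 81.8, 80.8 and 79.4 CPM in Control and 65.8, 63.6 and 68.4 CPM in CUMS, with no overlap (log2 fold change -0.29 ± 0.049, edgeR adjusted p = 0.0063). The values count the whole gene, so spliced and unspliced Xbp1 mRNA are not separated. The ratio of Eif2ak3 to Xbp1 was 1.32, 1.38 and 1.46 in Control and 2.13, 2.187 and 1.93 in CUMS. Its separation follows from the calls of these genes in opposite directions and adds nothing to them. Ern1, the IRE1 gene, was at 38.8 ± 2.23 and 39.1 ± 1.79 CPM (0.01 ± 0.065). Atf6 measured 40.01, 36.8 and 37.0 CPM in Control and 36.2, 30.8 and 34.2 CPM in CUMS (-0.17 ± 0.073, edgeR adjusted p = 0.26), below every Control library but not past the threshold.

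PERK is 1 of 4 kinases of eIF2alpha, and the other three served as a comparison within the same libraries. Eif2ak1, the haem-regulated kinase, fell from 84.0 ± 2.97 to 72.9 ± 1.82 CPM (log2 fold change -0.20 ± 0.049, edgeR adjusted p = 0.038), although this call ended without any library other than CUMS replicate 1, and with no filter on low counts (adjusted p up to 0.16). Eif2ak2, the kinase that double-stranded RNA activates, had 0.04 ± 0.057 at 103 and 106 CPM. Eif2ak4, the amino acid sensor GCN2, was scarce at 2.62 and 2.05 CPM (-0.36 ± 0.20, edgeR adjusted p = 0.43). Ppp1r15b, the constitutive eIF2alpha phosphatase subunit gene, was abundant and had -0.02 ± 0.037 at 462 ± 11.8 and 455 ± 5.56 CPM.

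Of the 8 amino acid stress genes tested, 0 were called by edgeR, beside 4.5% of all genes in either direction. At an unadjusted p under 0.05, 3 were lower and 1 higher (16.9% of all genes passed it in either direction). DESeq2 called 1 lower and voom 2. Slc7a11, the cystine transporter gene with an amino acid response motif on each strand, measured 66.5, 80.8 and 74.7 CPM in Control and 58.1, 65.8 and 63.1 CPM in CUMS. Every CUMS library was below every Control library, and the gene came closest to the threshold (log2 fold change -0.25 ± 0.073, edgeR adjusted p = 0.090). It was called under 6 of the 13 alternatives, DESeq2 among them. Asns, the asparagine synthetase gene and an ATF4 target, measured 17.4, 18.7 and 17.6 CPM in Control and 16.5, 13.8 and 12.9 CPM in CUMS, also without overlap (-0.31 ± 0.10, edgeR adjusted p = 0.13).

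The effectors below PERK did not share a direction, and none passed. Atf4 mRNA was at 120 ± 7.90 and 113 ± 1.26 CPM (-0.08 ± 0.053), a level that says nothing of its translation, through which ATF4 is mainly controlled. Ddit3, the CHOP gene, measured 29.7, 30.3 and 29.7 CPM in Control and 34.8, 34.4 and 32.0 CPM in CUMS. These values did not overlap, but the gene did not pass (0.18 ± 0.063, edgeR adjusted p = 0.16). Ppp1r15a, the inducible eIF2alpha phosphatase subunit GADD34, lay in the opposite direction, at 18.5, 22.0 and 18.7 CPM in Control and 15.3, 16.9 and 17.5 CPM in CUMS (-0.25 ± 0.096, adjusted p = 0.19). Chac1, a glutathione-degrading enzyme gene, Sesn2, a sestrin gene, and Trib3, a pseudokinase gene, had -0.02 ± 0.11, 0.05 ± 0.054 and 0.06 ± 0.29.

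**Figure D4:**
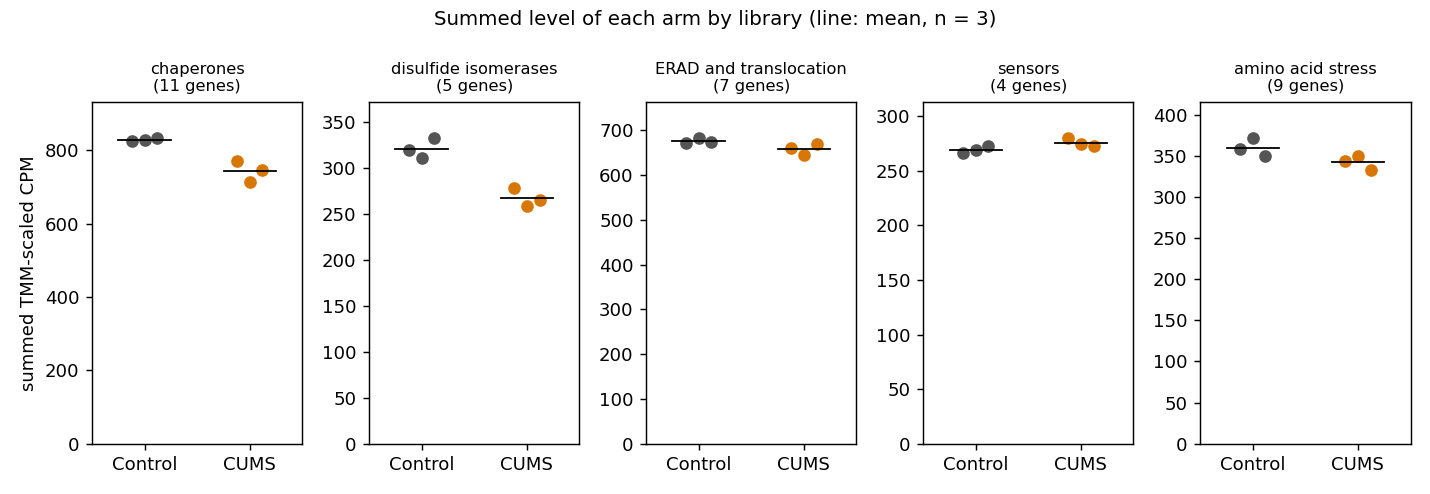
Summed CPM of all members of an arm in each library (vertical axes from 0; lines are means of 3). Chaperone and isomerase sums in CUMS lie below those of Control without overlap, ERAD sums lie below by a small margin, sensor sums slightly above, and the amino acid stress sums overlap at 350 CPM.

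The chaperone genes together took 825, 829 and 832 CPM in Control and 771, 714 and 745 CPM in CUMS. The isomerase sums were 319.7, 311 and 332 CPM and 278, 259 and 265 CPM, also without overlap. ERAD sums were 672, 682 and 673 CPM against 661, 646 and 669.9 CPM. Sensor sums (266, 269.5 and 273 CPM against 279.6, 274.5 and 273 CPM) were slightly higher in CUMS. These sums follow the most abundant genes and are given as a description, with no test.

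Of the 9 members that hold ERSE, 2 fell (Hsp90b1 and Canx), 7 had negative estimates and the median was -0.20. By edgeR 2.14% of all genes fell. Of the 11 other tested genes with ERSE, 0 were called by edgeR, 4 had negative estimates and the median was 0.06. Several of these 11 were poorly measured: their SE ran from 0.054 (Pan2) to 1.39 (Derl3). Among the 9 members it ran from 0.042 (Hspa5) to 0.14 (Creld2), so calls and medians of these sets are not a like comparison. Pdia3, P4hb and Xbp1 fell, and Eif2ak3 rose, without any of the searched motifs in their windows. Whether members with and without ERSE differ in response was not tested.

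**Figure D5:**
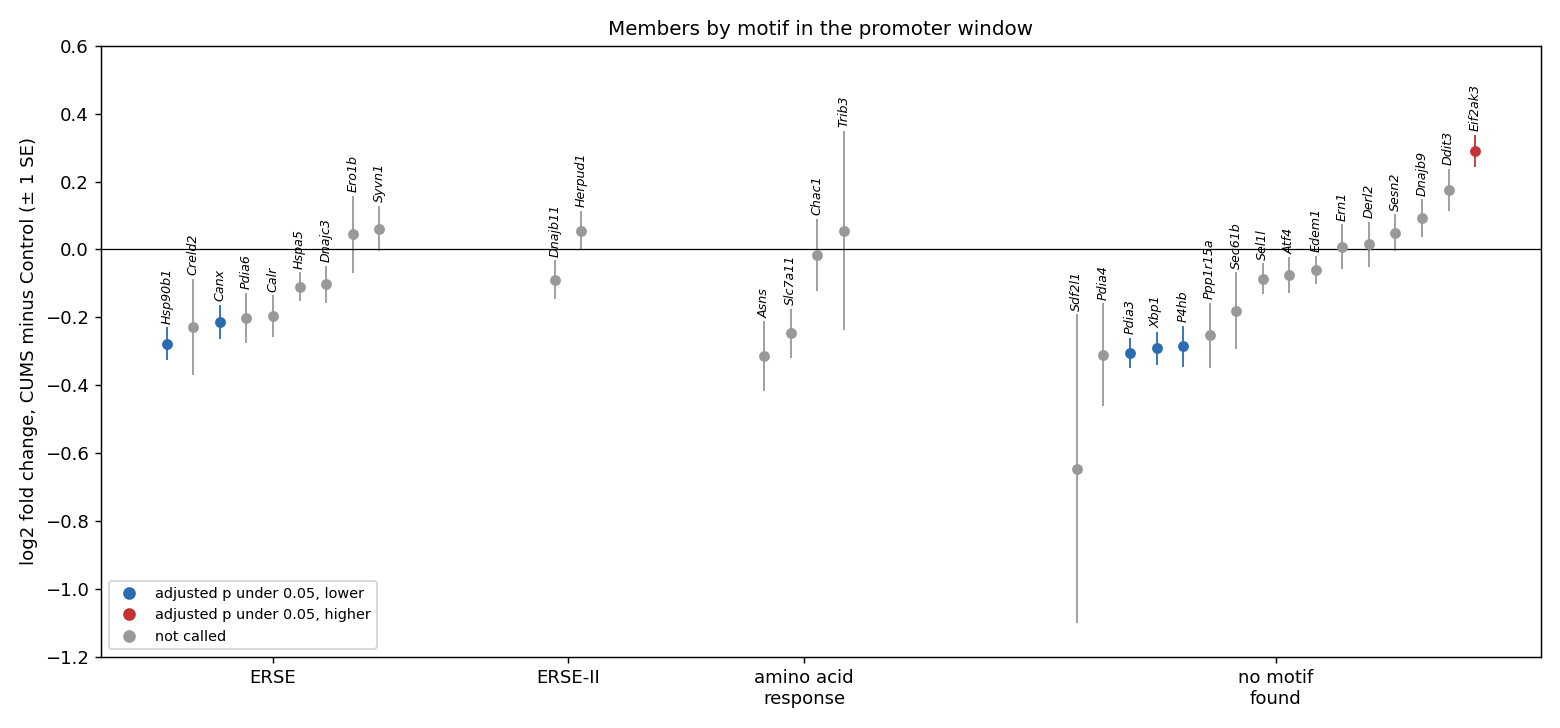
Log2 fold change (CUMS minus Control, ± 1 SE) of the 31 tested members with a promoter window, by the motif found there; Herpud1 is shown with ERSE-II and also holds an amino acid response motif. Called genes (2 of 9 with ERSE, 4 of 16 with no motif) occur with and without a motif.

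Other genes of the pathway were read from 5 lists of 136 genes, of which 126 were tested: 6 fell, 0 rose by edgeR (18 and 4 at an unadjusted p under 0.05, 8 and 2 by DESeq2), and the median was -0.04. All calls were in 1 direction: 4.76% of these genes were lower, beside 2.14% of all genes, and 0 were higher, beside 2.36%. In either direction 4.5% of all genes were called, and 16.9% passed the unadjusted threshold. Of 28 translocon and glycosylation genes, 26 had negative estimates, beside 51.6% of all genes. Their median was -0.12, 2 fell and 0 rose (7 and 0 unadjusted, beside 16.9% of all genes in either direction, and 2 and 0 by DESeq2). Both that fell encode ribophorins, subunits of the oligosaccharyltransferase that glycosylates proteins entering the ER. Rpn1 measured 66.6, 62.2 and 64.6 CPM in Control and 52.7, 56.2 and 54.1 CPM in CUMS (log2 fold change -0.25 ± 0.053, edgeR adjusted p = 0.022). Rpn2 went from 26.0 ± 2.08 to 20.6 ± 0.168 CPM (-0.34 ± 0.076, edgeR adjusted p = 0.028). Other subunits of the enzyme, Stt3a, Stt3b, Ddost and Dad1, had -0.08, -0.14, -0.10 and -0.20 and did not pass. The Rpn1 and Rpn2 calls each ended in 5 of the 6 fits that left out a library (edgeR adjusted p up to 0.12).

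Among 22 further ER folding genes tested, edgeR called 0 (6 lower and 1 higher at an unadjusted p under 0.05, 1 lower by DESeq2), with a median of -0.05. Of all genes, edgeR called 4.5% in either direction, and 16.9% passed the unadjusted threshold. Uggt1, the folding sensor that returns glycoproteins to calnexin, had -0.03 ± 0.057, and Ganab, a glucosidase subunit gene that releases them, -0.13 ± 0.050. Among 22 further ERAD genes edgeR called 0 (0 unadjusted, 0 by DESeq2), with a median of 0.02. Among 19 other sensor and signalling genes 1 fell (Eif2ak1) and 0 rose (1 and 1 unadjusted, 1 and 1 by DESeq2).

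Among 35 other ATF4 and amino acid genes tested, 3 fell and 0 rose (4 and 2 unadjusted, 4 and 1 by DESeq2), with a median of -0.06. The edgeR share lower was 8.57%, beside 2.14% of all genes, and 16.9% of all genes passed the unadjusted threshold. Aars, the alanyl-tRNA synthetase gene, measured 8.65, 8.11 and 9.42 CPM in Control and 6.20, 5.57 and 6.22 CPM in CUMS (log2 fold change -0.54 ± 0.12, edgeR adjusted p = 0.028). It was the 1 of 11 tRNA synthetase genes in the list that passed, and its call ended when any single library was left out and with no filter (edgeR adjusted p up to 0.12). Slc38a2, a neutral amino acid transporter gene, fell by 0.18 ± 0.038 on the log2 scale from 268 ± 3.10 to 236.5 ± 5.11 CPM, and Jdp2, an AP-1 family repressor gene, by 0.25 ± 0.054 from 88.0 ± 1.43 to 74.0 ± 4.55 CPM (edgeR adjusted p = 0.022 and 0.023). Each of these calls ended with no filter and in at least 4 of the 6 fits that left out a library (edgeR adjusted p up to 0.13). Atf3, an ATF4 target, had 0.30 ± 0.10 with overlapping groups and did not pass (edgeR adjusted p = 0.145).

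Markers of other cells and of cell division moved in the same libraries. The counts below are edgeR calls unless said otherwise, to be read beside 2.14% of all genes lower and 2.36% higher. Cell division genes, which mark the immature marrow stages, fell in 17 of 20 cases with a median of -0.69. Of 12 granulocyte progenitor genes, Elane (0.454 and 2.13 CPM) and Mpo (3.42 and 6.95 CPM) rose at low levels, and Fcnb (73.5 and 49.0 CPM) fell. Prtn3 and Ctsg, also scarce, did not pass. The list summed to 311 to 328 CPM in Control and 282 to 306 CPM in CUMS, with Cebpe (159 and 150 CPM) its largest part. Plasma cells carry a large ER and high Xbp1. Their 14-gene list, which includes Xbp1 itself, summed to 245 to 253 CPM in Control and 276 to 282 CPM in CUMS. Ighm, at 141 CPM in Control and 175 CPM in CUMS, made up most of that sum. Of the 13 tested, Ighm and Igha (12.6 and 16.6 CPM) rose, Xbp1 fell, and 9 had positive estimates. Jchain (3.01 and 3.70 CPM), Pou2af1 (2.61 and 3.78 CPM), Mzb1 (0.156 and 0.533 CPM) and Sdc1 (0.207 and 0.255 CPM) were scarce and did not pass. For Pou2af1 and Mzb1 every CUMS library was above every Control library. Tnfrsf17 was listed at 0 in all libraries. Of 10 eosinophil markers, 9 had positive estimates with a median of 1.20, 2 rose and 0 fell. The list summed to 46.7 to 54.8 CPM in Control against 53.2 to 62.6 CPM, ranges that overlap. The 2 were the granule protein genes Epx, at a mean of 0.119 and 1.49 CPM, and Prg2, at 0.885 and 4.82 CPM, while the surface marker Siglecf was at 19.2 and 20.1 CPM and did not pass. Of 13 monocyte and macrophage genes, Csf1r (176 and 201 CPM) and F13a1 (1.21 and 3.07 CPM) rose and 0 fell. Of 14 neutrophil genes, the granule protein genes Ltf (21460 and 19849 CPM) and Camp (3567 and 2949 CPM) fell, and the scarce Elane and Mpo rose as given above. The 12 B cell genes summed to 27.4 to 36.7 and 40.4 to 47.2 CPM. Of 8 basophil and mast cell genes, 7 had negative estimates with a median of -0.76, and 0 were called. At an unadjusted p under 0.05, which 16.9% of all genes passed, 4 were lower and 0 higher. That list summed to 39.4 to 44.0 CPM in Control and 35.2 to 40.4 CPM in CUMS, ranges that overlap. The part of these cell type and cell division differences in the values of the folding genes was not tested.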

How the data were processed

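RNA-seq libraries of sorted bone marrow neutrophils (3 Control, 3 CUMS) were made from 1 µg of total RNA and read as 2 × 150 bp pairs, per the labels' protocols. Tools listed in the submitters' processing notes, with no order given, are featureCounts 1.6.4, DESeq2 2.11.40.6, HISAT2 2.1, bcl2fastq 2.19 and cutadapt 1.16.5, and the genome is mm10. The values deposited by the authors are 1 whole number per gene, not normalized, and were treated as estimated counts: the values 4, 8, 12 and 16 were 1.89, 1.66, 1.41 and 1.38 times as common as their neighbours, so a read pair is worth about 4, and 1588 rows carry identifiers of assembled transcripts, a step the notes do not name. Counting error is thus larger than the numbers themselves would give. Library preparation with or without strand is not given in the sources used here.

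Symbols were read from the files, and 1232 rows that share a symbol with a more abundant row were kept under their own row name. edgeR 4.0.16 (R 4.3.3) was run on the values as deposited: filterByExpr, TMM scaling, the quasi-likelihood test of CUMS against Control with no covariate, and Benjamini-Hochberg adjustment over all genes tested. SE was derived from the F statistic. CPM values are TMM-scaled and their error is SD (n = 3). DESeq2 1.42.0 and voom with quality weights (limma 3.58.1) were alternatives, beside RLE scaling, no filter, a filter of mean 1 CPM, values divided by 4, a replicate block and leaving out each library. The fits were checked on simulated counts. Gene coordinates and exon lengths are from GENCODE M21 (GRCm38), matched by symbol (Ero1b as Ero1lb). Members, arms and lists were chosen with earlier results of these data known. Members past the threshold, and the 2 of lowest unadjusted p in each arm, are given by library; others were added after their values were seen. From the pathway lists, genes past the threshold are named by rule. A planned description of protein ends was not made, as protein sequences were not used here. No 2 libraries agreed within sampling noise. The closest pairs were CUMS 2 with CUMS 3 and Control 2 with Control 3 (chi-square per degree of freedom 4.09 and 4.16). For CUMS 1 the value was 9.18 with Control 2 and 10.25 with Control 3, against 10.44 with CUMS 3 and 13.94 with CUMS 2. On this measure, which grows with depth, CUMS 1 thus did not group with the other CUMS libraries.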

Additional observations from a re-analysis of the deposited data

How the results depend on the processing

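Of the 7 called members, 4 (Hsp90b1, Pdia3, Xbp1 and Eif2ak3) kept their calls under all 13 alternatives. The number of members called lower was 6 in the reported fit, 6 with RLE scaling, 7 with values divided by 4 and with a mean of at least 1 CPM, 8 with DESeq2 and with the replicate block, 9 with voom, 4 with no filter, and 3 to 6 when a library was left out. The number called higher was 1 in every setting. Over all genes 710 were called, against 1154 with DESeq2, 462 with no filter and 305 to 697 without a library; the causes were not tested. Same-numbered libraries did not deviate together (correlations of 0.008, 0.003 and -0.026), nor did every library correlate best with its own number. Values were centred within each group of 3 first, which forces these correlations to balance out, so they cannot exclude a shared batch. The labels do not say what the numbers mark. With the replicate block 931 genes were called, against 710 without it.

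Estimates of 6 uncalled members near 0 changed sign. Derl1 was 0.0043 with RLE scaling, 0.0071 with DESeq2, 0.0067 with no filter and 0.004 with voom, and Ern1 was -0.0025 with voom. Leaving out a library gave -0.0301 to 0.1852 for Ero1b, -0.0336 to 0.0409 for Derl1, -0.0394 to 0.0565 for Derl2, -0.0367 to 0.0417 for Ern1, -0.1829 to 0.2771 for Trib3 and -0.1092 to 0.0579 for Chac1. Of 454 values of single genes under an alternative, 408 kept direction and side of the threshold, 16 lost a call, 12 gained one and 18 changed sign; the cause was not tested. Depth limits Sdf2l1 and Trib3 most.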

Other observations

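Across the genome, 338 tested genes held the amino acid response motif in their promoter window. Of these, 8 fell and 10 rose by edgeR, a count to be read beside the 4.5% of all genes called in either direction, with a median log2 fold change of 0.0085, and the 5 members among them included 0 called genes. The ratio of Hsp90b1 to Hspa5 was 0.621, 0.622 and 0.586 in Control and 0.542, 0.531 and 0.553 in CUMS, with no overlap. The ratio of Ddit3 to Atf4 was 0.236, 0.247 and 0.268 in Control and 0.306, 0.3004 and 0.286 in CUMS, also without overlap. In contrast, the ratio of Calr to Canx overlapped, at 1.75, 1.62 and 1.62 in Control and 1.85, 1.63 and 1.56 in CUMS. These ratios were chosen after the values were seen and are given as values only.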
